A study of Mus musculus with 24 samples.

Results

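The sites described here are 10493 stretches of the mouse genome, away from transcript starts, where cohesin and CTCF were both found in parental cells and where no CTCF peak was left once CTCF had been degraded. Sites were built from the authors' peak lists. Overlapping Rad21 peaks of the 3 parental Rad21 libraries were merged, and a merged stretch was kept when all 3 libraries had a peak in it, which gave 25027 sites, of which 23904 lie outside chromosome 12. Parental CTCF sites were built the same way and number 33715. A Rad21 site overlapping a CTCF site and more than 1 kb from any transcript start was called a distal Rad21-and-CTCF site, and there are 14933 of these. The 10493 members are the 70.3% of them that no peak of the 3 CTCF lists of auxin-treated CTCF-degron cells overlaps. Of all Rad21 sites at a parental CTCF site, promoters included, 63% had lost CTCF by that rule. Members were chosen by the parental Rad21 and CTCF peaks and by the missing CTCF peaks, so these are given as descriptions and are not tested. Whether Rad21 itself was still called at a member was not part of the choice.

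Cohesin is a ring-shaped protein complex, with Rad21 as one of its subunits, that encircles DNA and extrudes it into loops. CTCF is a zinc-finger protein that binds a long motif and halts moving cohesin, so that cohesin accumulates where CTCF is bound and mainly on one side of its motif. Cohesin is loaded elsewhere, at promoters and enhancers among other places, and can be found there without CTCF. In developing B lymphocytes both proteins organise the long loops that bring distant V gene segments to the recombination centre of the antigen receptor loci.

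All libraries came from a v-Abl transformed pro-B cell line, that is, B-cell precursors immortalised by the Abelson oncogene, deficient in RAG2 and carrying an Emu-Bcl2 transgene. Every culture received the Abl inhibitor STI-571 at 3 µM for 4 days. Parental cells carry no degron and received no auxin, and were profiled with 3 CTCF and 3 Rad21 libraries. CTCF-degron cells, in which the degron-tagged CTCF is destroyed when the auxin IAA is present, received 500 µM IAA for 6 h and again together with STI-571. They were profiled with 3 CTCF and 3 Rad21 libraries, all with IAA. Rad21-degron cells were profiled for Rad21 alone, with 2 libraries without IAA and 2 with IAA. The line and the IAA changed together between parental and CTCF-degron cells, so the 2 cannot be told apart there. No CTCF library of the Rad21-degron line was analysed here.

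The lists gave the depletion that the labels name. Parental CTCF lists held 46657 to 52357 mouse peaks and CTCF-degron IAA lists 8215 to 15754. Rad21 lists held 29724 to 67810 mouse peaks in parental cells, 15690 to 35224 in CTCF-degron cells with IAA, 22085 and 32913 in Rad21-degron cells without IAA, and 1384 and 3588 with IAA. A peak list holds no read counts, so the depth behind a missing peak is unknown and an absent peak says only that none was called. Replicate 3 of the CTCF-degron Rad21 libraries had the shortest list of its group. Peak names carry short codes, and in the CTCF-degron line the CTCF lists bear B1 in replicate 1 and A7 in replicates 2 and 3, whereas the Rad21 lists bear A7 in replicate 1 and A11 in replicates 2 and 3. The labels do not say what the codes stand for, nor whether CTCF and Rad21 were measured in the same cultures. They also do not say that replicates were separate cultures, so p-values measure the spread between these libraries, which may be technical.

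A core of the CTCF motif, made of the letters CCA, AG and GGC with 2 free letters after each of the former pair, was searched on both strands and found in 47.1% of members. In 300 bp around the mean midpoint of the parental Rad21 peaks it was found in 43.1% of members, in 36.4% of the 1953 distal sites that retained CTCF in all 3 lists, and in 1.90% of the 791 distal Rad21 sites without any parental CTCF peak. Windows of the same length placed 5 kb from the members held it in 2.65% of cases. The 60 bp around the core are shown for 6 members that stood among the highest parental Rad21 peaks, read 5′ to 3′ along the motif strand from the NCBIM37 (mm9) genome, with the core in capitals. The 3 members below had no peak of either protein in any CTCF-degron list, at Mrc1 (chr2:14217214-14217273, minus strand), Fbxl17 (chr17:63763723-63763782, plus strand) and Sh3bp5 (chr14:32199306-32199365, plus strand).
Mrc1: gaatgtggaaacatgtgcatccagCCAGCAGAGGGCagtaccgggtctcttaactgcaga
Fbxl17: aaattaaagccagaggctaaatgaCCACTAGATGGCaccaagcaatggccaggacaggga
Sh3bp5: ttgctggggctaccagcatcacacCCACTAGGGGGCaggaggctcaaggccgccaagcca

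The next 3 had no CTCF peak left either but still had a Rad21 peak in all 3 CTCF-degron lists, at Mcoln2 (chr3:145841031-145841090, minus strand), Fam69a (chr5:108350547-108350606, plus strand) and Fgd2 (chr17:29508454-29508513, plus strand).
Mcoln2: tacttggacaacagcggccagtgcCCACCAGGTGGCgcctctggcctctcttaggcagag
Fam69a: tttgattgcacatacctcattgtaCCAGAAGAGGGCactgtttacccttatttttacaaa
Fgd2: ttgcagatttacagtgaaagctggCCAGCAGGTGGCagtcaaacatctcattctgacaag

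Only members that carry the core were picked for printing, so its presence in both sets was set by that choice. The Fam69a and Fgd2 sites hold 2 cores each, and the one nearest the parental CTCF midpoint is shown.

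Most members had no Rad21 peak in CTCF-degron IAA cells. Any Rad21 peak sharing 1 bp or more with a member counted as Rad21 kept in that library. Rad21 peaks were called at 1820, 1458 and 334 members in replicates 1, 2 and 3 of the CTCF-degron IAA libraries, or 17.3%, 13.9% and 3.18% (mean 11.5% ± 7.38, SD, n = 3). Over all 23904 parental Rad21 sites outside chromosome 12, the same libraries called 56.8%, 52.5% and 36.1%. In Rad21-degron cells without IAA, which received no auxin and played no role in the choice of members, 80.6% and 65.2% of members had a Rad21 peak (72.9% ± 10.9, SD, n = 2). The members' share in CTCF-degron IAA cells was thus 61.5 percentage points lower, with every CTCF-degron library below both others. The exact permutation test (two-sided) gave p = 0.1, which 3 against 2 libraries cannot go below. Line, degron and IAA differ together between these 2 groups, so their parts cannot be told apart. The 2 untreated Rad21-degron lists, of 22085 and 32913 peaks, lie within the range of the CTCF-degron lists, and with all 5 lists shortened to the length of the shortest the difference was −51.0 points. When a peak had to cover at least 50% of a site the difference was −11.4 points. Members had a median width of 695 bp. Their Rad21 peaks had median widths of 265 and 206 bp in untreated Rad21-degron lists and 204, 153 and 129.5 bp in CTCF-degron lists. The 50% rule thus drops most calls in both groups. No exact permutation test over these 2 or 3 libraries can reach 0.05.

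Degrading Rad21 itself left almost nothing. With IAA, the Rad21-degron libraries called a peak at 7 and 1 of the 10493 members, or 0.0667% and 0.00953%. Over all parental Rad21 sites outside chromosome 12 the same 2 libraries called 6.23% and 1.74%, and at least 1 of them 6.63%. The difference from the same line without IAA was −72.9 points (exact permutation test, two-sided, p = 0.333, the smallest possible with 2 against 2). Rad21 was called at 11.4 points more of the members in CTCF-degron IAA cells than in Rad21-degron IAA cells, and all 3 libraries of the former were above both of the latter (exact permutation test, two-sided, p = 0.2). With every list cut to the 1384 highest peaks, the length of the shortest, that last difference was −0.00477 points and the one within the Rad21-degron line −4.06 points. Such a cut removes most member peaks by construction, since their median ranks in the CTCF-degron lists were 35 to 40.4. With 50% coverage these 2 differences were 1.09 and −12.5 points. Leaving out replicate 2 of the CTCF-degron CTCF libraries, which adds members, raised the former to 18.2 points.

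**Figure D1:**
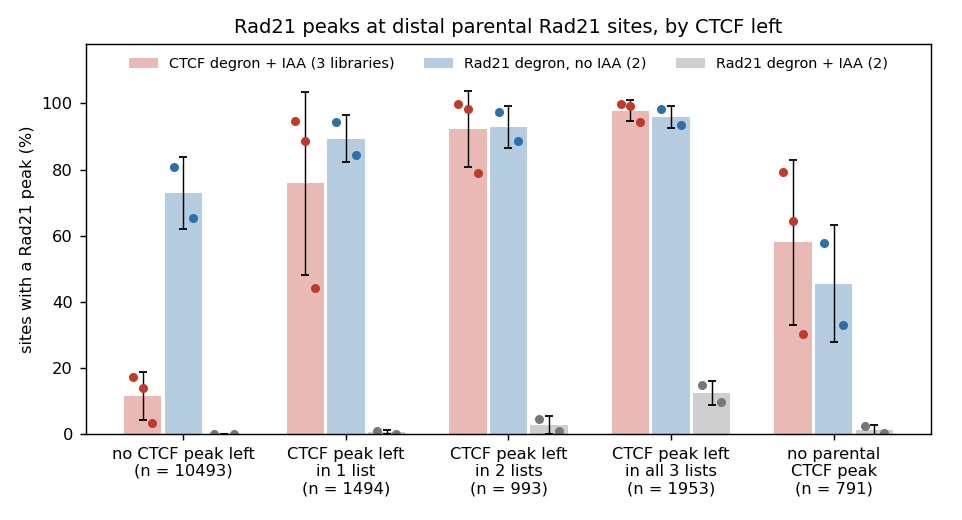
Percent of sites with a Rad21 peak (y axis) for 5 classes of distal parental Rad21 sites (x axis), in CTCF-degron IAA (red), Rad21-degron without IAA (blue) and Rad21-degron IAA libraries (grey). Points are libraries, bars are means and error bars are SD. At sites with no CTCF peak left the red points lie between 3.18% and 17.3%, while both blue points are above 65%.

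Sites that kept CTCF kept Rad21. At the 1953 distal sites with a CTCF peak in all 3 CTCF-degron lists, Rad21 peaks were called at 99.9%, 99.3% and 94.3% (97.8% ± 3.09, SD, n = 3). The difference, members minus these sites, was −86.3 ± 4.34 points (SD, n = 3) and negative in 3 of 3 libraries (exact sign-flip permutation test, two-sided, p = 0.25, the smallest possible with 3 libraries). Between these ends stood the 1494 sites with a CTCF peak left in 1 list, at 94.7%, 88.7% and 44.0%, and the 993 sites with CTCF left in 2 lists, at 99.7%, 98.2% and 79.1%. In each library, sites with CTCF left in a single list thus had a higher Rad21 share than the members. That single list was CTCF replicate 2 at 1266 of the 1494 sites, replicate 1 at 215 and replicate 3 at 13. Members had lower parental signals than the sites that retained CTCF, with a median percentile rank of 72.4 against 89.7 in the parental Rad21 lists and of 74.9 against 90.7 in the parental CTCF lists. Within quartiles of the parental Rad21 rank the difference was −85.2, −86.9, −86.3 and −79.0 points from the lowest quartile to the highest. Within quartiles of the parental CTCF rank it was −83.9 points on average.

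Distal Rad21 sites that never had a CTCF peak in parental cells also kept Rad21 more often than the members did. Of these 791 sites 79.1%, 64.3% and 30.3% had a Rad21 peak in CTCF-degron IAA cells, although their median parental Rad21 rank was only 35.6. The difference, members minus these sites, was −46.5 ± 17.7 points (SD, n = 3) and negative in 3 of 3 libraries (exact sign-flip permutation test, two-sided, p = 0.25, the smallest possible). In Rad21-degron cells without IAA the order was the opposite, at 57.9% and 32.9% for these sites against 80.6% and 65.2% for the members. In CTCF-degron IAA cells the 791 sites were not all without CTCF: CTCF peaks were called at 21.7%, 14.7% and 3.16% of them, and 59.4% lay within 10 kb of a remaining CTCF peak, against 27.3% of members. The part of that CTCF in the Rad21 difference was not tested. The difference in CTCF-degron cells was −23.1 points with 50% coverage, −29.7 points with lists shortened to the shortest, and −30.9 points when parental Rad21 replicate 3 did not enter the choice of sites. That library has the shortest parental list, and it called 69.0% of the members that the other two parental libraries defined, against 99.98% and 99.3% for replicates 1 and 2.

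The members that kept Rad21 were partly shared between libraries. No Rad21 peak was found in any of the 3 lists at 8364 members (79.7%), whereas 41.5% of all parental Rad21 sites were without one. A peak was present in 1 list at 922 members, in 2 lists at 931 and in all 3 at 276 (2.63%), where all parental Rad21 sites gave 35.6%. Replicates 1 and 2 accounted for most of the overlap, with 892 members called in these 2 alone. Replicate 3 alone called 19. At least 1 list had a peak at 2129 members (20.3%), against 58.5% of all parental Rad21 sites. Both untreated Rad21-degron libraries called Rad21 at 79.0% of the 2129 and at 59.2% of the members with none. Across all members that share was 63.2%, against 63.4% of all parental Rad21 sites. The number kept in every list used was 1168 without CTCF-degron Rad21 replicate 3, where only 2 lists had to have a peak. It was 788 without CTCF-degron CTCF replicate 2, which adds members. Leaving out a list of either kind cannot lower this number. It was 44 at a q-value of 0.001 or less, 138 with shortened lists, 1 with 50% coverage, and 479 when a CTCF peak in 1 parental library was enough.

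Where Rad21 was kept, it was weak within its list. The authors' fold enrichment orders the peaks of a list, and a rank of 100 is the highest. In the CTCF-degron lists, the Rad21 peaks at members had median ranks of 40.1, 40.4 and 35, and those at sites that retained CTCF 96.0, 94.5 and 88.7. The difference in median rank was −54.6 ± 1.17 (SD, n = 3) and negative in 3 of 3 libraries (exact sign-flip permutation test, two-sided, p = 0.25, the smallest possible). Their median widths were 204, 153 and 129.5 bp against 709, 558 and 400 bp. In the same lists, Rad21 peaks at distal sites without any parental CTCF peak also ranked low, with medians of 53.6, 43.8 and 40.3. At the 276 members with Rad21 in every list, the median fold enrichment was 10.3, 9.28 and 5.85 in the parental libraries and 4.87, 5.05 and 4.30 in the CTCF-degron libraries. Fold values come from separately called lists and are set side by side without a test.

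Kept members had been the stronger and wider ones in parental cells. Members with no Rad21 left had a median parental Rad21 rank of 70.8 and a width of 666 bp, and those with Rad21 in all 3 lists 80.0 and 1014.5 bp. Across deciles of the parental Rad21 rank the share with Rad21 in CTCF-degron cells was flat, between 7.59% and 8.89%, over the lower 6 deciles, and then rose to 24.2% ± 14.5 (SD, n = 3) in the highest. In Rad21-degron cells without IAA the share climbed over the whole range, from 28.1% ± 13.9 to 99.6% ± 0.202 (SD, n = 2). So even among the members with the highest parental rank, where Rad21 was called nearly everywhere without IAA in the Rad21-degron line, 34.4%, 30.6% and 7.52% had a peak in CTCF-degron replicates 1, 2 and 3. By width, the share went from 4.83% ± 3.51 at sites up to 600 bp to 37.3% ± 20.6 at sites over 1200 bp (SD, n = 3). A wider site offers more room for an overlap. Counting only peaks over the central 200 bp, the share still went from 4.73% to 23.9%.

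**Figure D2:**
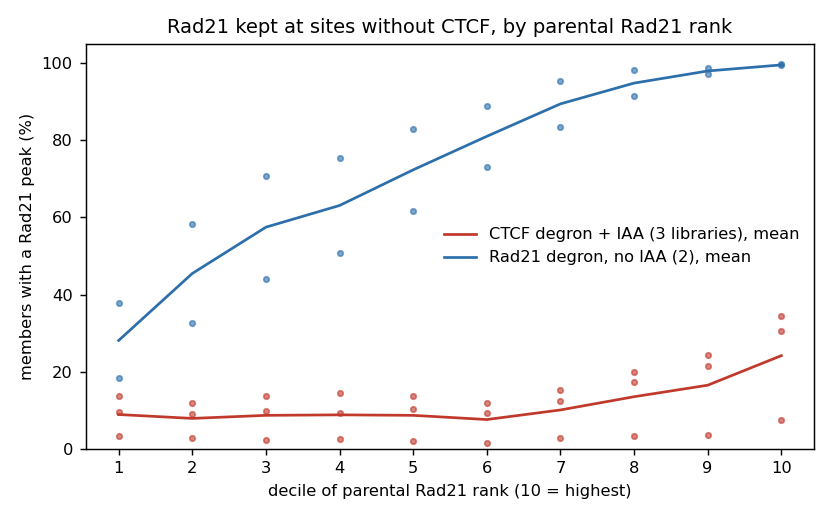
Percent of members with a Rad21 peak (y axis) by decile of the parental Rad21 rank (x axis, 10 is the highest), in CTCF-degron IAA (red) and Rad21-degron without IAA libraries (blue). Points are libraries and lines join the means. The red line stays under 10% over the 6 lowest deciles and ends at 24.2%, and the blue line ends at 99.6%.

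The kept Rad21 peaks lay on the same side of the CTCF motif as in parental cells. Of the members, 4583 held a single core motif, and distances were taken from its centre, positive towards its 3′ end. The median CTCF midpoint in parental libraries was at −9.50 bp ± 2.65 (SD, n = 3). Parental Rad21 was at 19 bp ± 1.73, with 64.2% of its peaks on the 3′ side, and Rad21 in Rad21-degron cells without IAA at 12.2 bp ± 1.06 (n = 2). In CTCF-degron IAA cells the median offset was 19, 16.5 and 20.5 bp (781, 659 and 116 peaks), or 18.7 bp ± 2.02, and 62.8% ± 4.08 of the peaks were on the 3′ side. The parental offset of 19 bp covers all 4583 members, and the CTCF-degron offset only those with a peak. At the 943 with Rad21 in at least 1 CTCF-degron list, parental Rad21 was at 21.5 bp ± 2.60 (SD, n = 3). Whether the offsets differ was not tested. Since a counted peak must overlap the member, the site bounds its position. The 98 single-core members with Rad21 in all 3 lists had parental offsets of 31 bp ± 6.19 and CTCF-degron offsets of 24.2 bp ± 2.22.

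**Figure D3:**
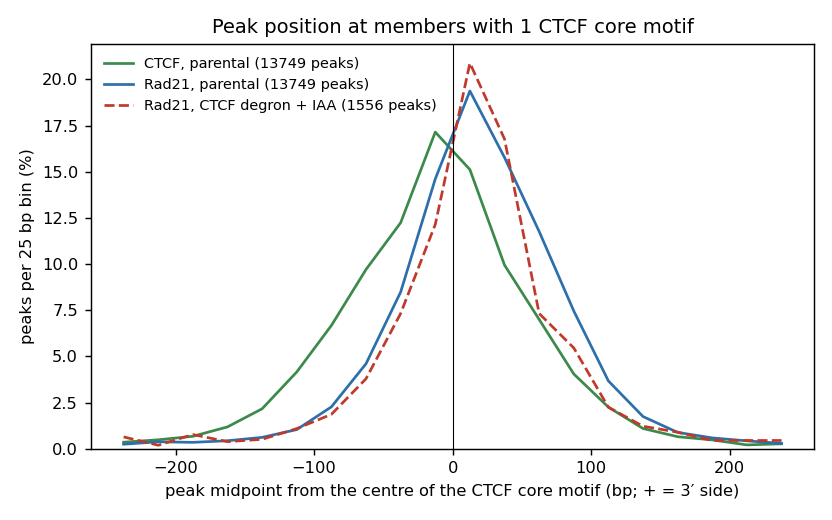
Distance in bp from the centre of the CTCF core motif to the peak midpoint (x axis, positive on the 3′ side) and percent of peaks in each 25 bp bin (y axis), libraries of a group pooled, at the 4583 members with 1 core motif. Parental CTCF (green) peaks in the bin left of the motif centre, and Rad21 peaks to its right in parental cells (blue) and, from 1556 peaks, in CTCF-degron IAA cells (red, dashed).

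Kept members were closer to the CTCF peaks that remained. The nearest CTCF peak of any CTCF-degron list lay at a median of 24564 bp from a member. For members with Rad21 in replicates 1, 2 and 3 the medians were 18672, 19721 and 14742 bp, and for those without 26125, 25601 and 25130 bp. The difference was −0.16 ± 0.061 on the log10 scale (SD, n = 3), in the same direction in 3 of 3 libraries (exact sign-flip permutation test, two-sided, p = 0.25, the smallest possible). It was −0.42 with 50% coverage. The share with Rad21 fell from 21.2% ± 10.5 at the 176 members within 1000 bp of a remaining CTCF peak to 8.90% ± 5.96 at the 1651 members over 100000 bp away (SD, n = 3). In Rad21-degron cells without IAA it went the other way, from 65.1% to 75.4%.

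Distance to a transcript start showed no such gradient. The means of the 5 distance classes ran from 10.4% to 12.4%, with SDs of 6.20 to 8.10 points between libraries. Of all members 54.0% were inside a gene body, 13.8% overlapped an exon and 46.0% were outside genes, while of the sites that retained CTCF 31.2% were inside a gene body. Kept members were less often inside a gene body, at 49.9%, 48.1% and 50.9% against 54.9%, 55.0% and 54.1%, a difference of −5.01 ± 1.84 points in 3 of 3 libraries (exact sign-flip permutation test, two-sided, p = 0.25, the smallest possible, SD, n = 3). That difference was −10.3 points at a q-value of 0.001 or less, −2.01 with 50% coverage and −8.64 without CTCF-degron CTCF replicate 2. Members were spread over the chromosomes alike, from 67.0% to 74.3% of the distal sites of each, and on each 75.3% to 82.6% had no Rad21 left.

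**Figure D4:**
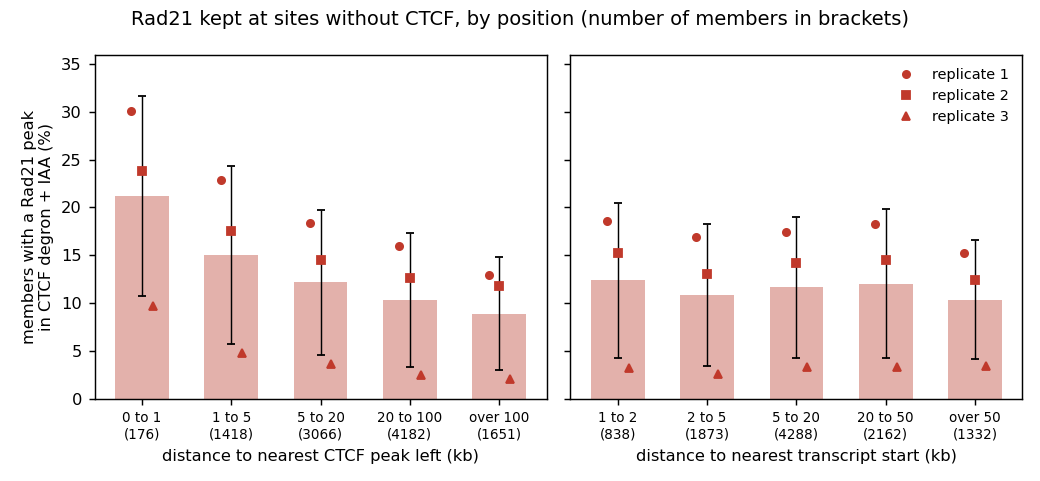
Percent of members with a Rad21 peak in CTCF-degron IAA cells (y axis) by distance in kb to the nearest CTCF peak left (left panel) and to the nearest transcript start (right panel). Symbols are the 3 libraries, bars their means and error bars SD. The bars fall from 21.2% to 8.90% on the left and stay between 10.4% and 12.4% on the right.

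The share of members with the core motif depended on the window searched. Over whole sites, which are wider for kept members, it was present in 47.2%, 50.2% and 41.0% of kept members and in 47.0%, 46.5% and 47.2% of the rest, a difference of −0.80 ± 5.02 points with no common direction (exact sign-flip permutation test, two-sided, p = 1, SD, n = 3). In the fixed 300 bp window, chosen after the width difference was seen, it was present in 38.5%, 42.2% and 30.2% of kept members and in 44.0%, 43.2% and 43.5% of the rest. That difference of −6.58 ± 6.22 points was negative in 3 of 3 libraries (exact sign-flip permutation test, two-sided, p = 0.25, the smallest possible, SD, n = 3). The window held the core in 30.4% of the members with Rad21 in all 3 lists and in 43.7% of those with none. Of 5 further motifs searched in that window on both strands, the ETS-type GAGGAAGT bound by PU.1 and its relatives was found in 6.52% of the 276 members with Rad21 in all 3 lists, in 1.09% of windows 5 kb from them, and in 1.75% of the members with no Rad21 left. The distal Rad21 sites without parental CTCF held it in 8.98% of cases. By library, kept members had it in 3.19%, 3.7% and 6.29% and the rest in 1.79%, 1.76% and 1.89%. The E-box CAGCTG was in 19.7% ± 0.714 of kept members and 14.9% ± 0.324 of the rest (SD, n = 3). It was in 18.5%, 21.7% and 15.8% of the members with Rad21 in 3, 2 and 1 lists. Windows 5 kb from them held it in 16.7%, 13.4% and 15.9% of cases. Kept members were also richer in GC, with a median of 47.7% against 45.4%, and in CpG, with 4.68 against 3.43 per window, and the part of base composition in the motif shares was not tested. The RUNX letters TGTGGTTT were in 3.09% against 2.46%, and those of EBF1 in 0.863% ± 0.251 against 0.723% ± 0.0394 (SD, n = 3), with replicate 3 in the opposite direction. Of the members with Rad21 in all 3 lists 0.362% held the EBF1 letters, and of those with none 0.693%. The short IKAROS-type TGGGAA was in 30.1% of the members with Rad21 in all 3 lists and in 26.8% of those with none. A match is a run of letters, not a measured binding site.

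Rad21 peaks beside the members without Rad21 were on average no more frequent in the CTCF-degron lists than in those of the other lines. Among the 8364 members with no Rad21 peak, 24.5%, 19.5% and 12.2% had a CTCF-degron Rad21 peak outside the member and within 5 kb of it (18.8% ± 6.19, SD, n = 3). The same stretches held one in 34.0% ± 10.6 (n = 3) of cases in parental cells and in 21.8% ± 4.38 (n = 2) in Rad21-degron cells without IAA. Of these neighbouring peaks in CTCF-degron cells 86.3%, 94.7% and 96.3% overlapped a Rad21 peak of at least 1 parental library. The 8364 were chosen by the absence of peaks in the same CTCF-degron lists. Within each group the longer lists also gave the higher shares. These shares therefore cannot show whether Rad21 peaks shifted nearby, which was not tested.

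The 8 lost members with the highest parental Rad21 rank were at Mrc1 (macrophage mannose receptor), Fbxl17 (an F-box subunit of ubiquitin ligases), Hif1an (the hydroxylase that inhibits HIF-1), Sh3bp5 (a BTK-binding protein), Clec1a (a C-type lectin), Uqcrfs1 (the Rieske protein of respiratory complex III), Eaf2 (a partner of the elongation factor ELL) and Ccdc146. A site is named by the gene it lies in, or by the gene with the nearest transcript start. At Mrc1 (chr2:14216511-14217661, overlapping an exon, 44606 bp from a remaining CTCF peak) Rad21 fold enrichment was 34.1, 30.5 and 15.8 in the parental libraries and 16.2 and 12.4 in the Rad21-degron libraries without IAA. No Rad21 peak was called there in any CTCF-degron or IAA-treated Rad21-degron library. The Fbxl17 intron gave 28.2, 27.1 and 13.3 in parental cells and 10.3 and 10.1 in Rad21-degron cells without IAA, and was likewise empty in the others. All 8 had a peak in both Rad21-degron libraries without IAA.

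The 8 members of highest parental rank that kept Rad21 in every CTCF-degron list were at Mcoln2 (a lysosomal cation channel), Fam69a, Fgd2 (an activator of the GTPase Cdc42), Ncr3-ps (a receptor pseudogene), Traip (a ubiquitin ligase of DNA replication), Prex1 (an activator of Rac), Prkcd (protein kinase C delta) and Pcsk1 (a prohormone convertase). The Mcoln2 intron (chr3:145839820-145841555, 18304 bp from a remaining CTCF peak) had Rad21 fold enrichments of 36.1, 34.1 and 22.5 in parental cells, 18 and 15.0 in Rad21-degron cells without IAA, and 4.58, 5.59 and 4.56 in CTCF-degron IAA cells. The CTCF-degron values were the lowest of the 3 groups and did not overlap the others. These 8 sites were picked for high parental rank, and that choice favours high parental values. At Fgd2 they were 5.73, 5.36 and 4.85 after 28.5, 23.9 and 12.1 in parental cells. The Prkcd site lay 1211 bp from a remaining CTCF peak, the shortest distance of the 8, and gave 4.72, 6.12 and 4.88 after 24.8, 23.7 and 11.7. Neither Rad21-degron IAA library had a peak at any of these 8.

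**Figure D5:**
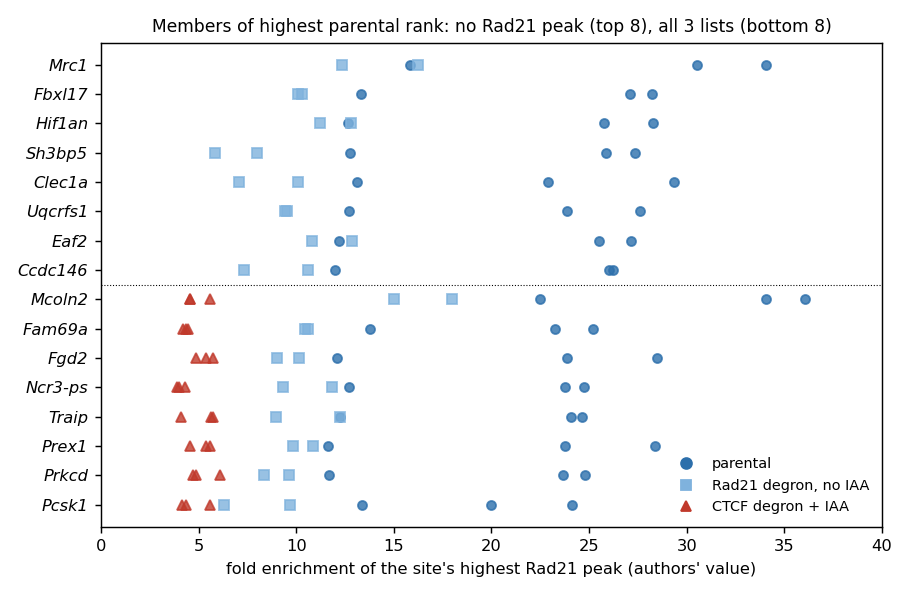
Fold enrichment of the highest Rad21 peak at each site (x axis, the authors' value) for the 8 members of highest parental rank without Rad21 in CTCF-degron IAA cells (above the dotted line) and the 8 with Rad21 in all 3 lists (below), by library. Blue circles are parental, light blue squares Rad21-degron without IAA and red triangles CTCF-degron IAA. Red triangles appear below the line only, at 3.90 to 6.12, left of all other symbols of their site. The choice of sites by parental rank favours high parental values.

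Some Rad21 peaks persisted far from any CTCF peak. Of the 276 members with Rad21 in all 3 lists, 210 also had it in Rad21-degron cells, in both untreated libraries and in neither IAA library, and have a central 31 bp found once in the genome. The 4 of these farthest from a remaining CTCF peak were in an intron of Bai3 (an adhesion receptor), near Pcsk1, near Ets1 (a lymphocyte transcription factor) and in Syne1 (nesprin-1). The Bai3 site (chr1:25567105-25567626) was 537301 bp from one. Its Rad21 fold enrichments were 9.67, 8.70 and 4.34 in parental cells, 6.09 and 5.46 in Rad21-degron cells without IAA and 5.30, 5.56 and 5.25 in CTCF-degron IAA cells, so here the groups overlapped. The Ets1 site (chr9:32902977-32903875), 399350 bp from the Ets1 start, gave 15.5, 11.9 and 6.58, then 8.09 and 5.44, then 5.76, 7.38 and 4.35. Of the 4, these 2 are the ones where CTCF-degron values reached the range of the other groups. At Pcsk1 (chr13:75364814-75365972) CTCF-degron values of 4.13, 5.58 and 4.37 stayed below 24.1, 19.97 and 13.4 in parental cells.

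Members at genes of B-cell development mostly had no Rad21 peak left either. A list of B-lineage transcription factors had 63 distal Rad21-and-CTCF sites, of which 28 were members and 15 retained CTCF in all 3 lists. Rad21 was left at these 28 members in 3 lists at 3, in 2 lists at 3, in 1 list at 2 and in none at 20 (71.4%, against 79.7% of all members). The Mef2c site (chr13:83794190-83795143, overlapping an exon) kept it in every list, at 5.79, 6.78 and 4.69 after 24.3, 18.8 and 10.7 in parental cells. Near Foxo1, a factor needed for Rag gene expression, it was kept in replicates 1 and 2 at 5.15 and 5.00. The E2f2 intron had none. Another member nearest to Ets1 (chr9:32747534-32748923) kept it in replicates 1 and 2, at 4.14 and 4.41.

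Of 23 members at pre-B receptor and signalling genes, 13 had no Rad21 left (56.5%, against 79.7% of all members). Of the others, 1 kept it in 3 lists, 2 in 2 lists and 7 in 1. Dntt, the terminal transferase that adds nucleotides at V(D)J joints, and Blk, a Src-family kinase of B cells, each kept a peak in replicate 1 alone, at 4.58 and 3.78. Nearest to Cd79b, a signalling chain of the B-cell receptor, a member in Scn4a kept none, nor did one in Spef2 nearest to Il7r, the interleukin-7 receptor. At JAK-STAT and Abl genes 16 of 17 members had no Rad21 left (94.1%), with Ccnd3, cyclin D3, as the exception at 4.87 and 3.92 in replicates 1 and 2. The Abl1 intron went from 20.6, 18.8 and 7.51 in parental cells to no peak, and the Jak1 intron from 15.7, 13.0 and 8.57. These members number too few for their shares to be read as different from those of all members.

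The antigen receptor loci outside chromosome 12 held 70 distal Rad21-and-CTCF sites, 53 of them members, and 39 of the 53 had no Rad21 left (73.6%, against 79.7% of all members). Of the others, 3 kept it in 3 lists, 4 in 2 lists and 7 in 1. Near Iglv1, a lambda light chain V segment, a site of several merged peaks (chr16:19086833-19089448) kept it in all 3, at 4.29, 6.24 and 4.62 after 15.8, 19.1 and 10.9. A kappa locus member (chr6:67983366-67984867) also kept it in all 3, at 4.30, 4.97 and 4.14, but its central 31 bp occur 2 times in the genome, so its reads could come from either copy. The kappa member near Igkv5-48 had a peak in replicate 2 alone, at 4.04, after 21.2, 24.1 and 10.5.

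Among imprinted genes, 9 of 11 members had no Rad21 left (81.8%, against 79.7% of all members). Upstream of H19, where CTCF binding on one parental allele is a textbook insulator, the member 1797 bp from the H19 start (chr7:149765845-149768118) kept Rad21 in replicates 1 and 2, at 4.31 and 4.38. In parental cells it gave 13.8, 10.4 and 6.20. One of the members in Gnas introns kept a peak in replicate 1, at 4.11, and its neighbour kept none, as did Plagl1. Genes of the cohesin and CTCF machinery had 10 members, 9 of them without Rad21 (90%), Smc3, Pds5b and Nipbl among them. These shares are close to that of all members or rest on few sites. The Hox clusters had 6 distal sites and 1 member, near Hoxa13, with Rad21 in replicates 1 and 2 at 4.91 and 4.88. None of the 2 distal sites at the clustered protocadherins was a member.

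At the edges of the rule, members at Gdpd3 and Col4a1 were 1004 bp from a transcript start and sites at Gm12307 and Angpt1 were 1000 and 999 bp away and so were left out. None of these 4 had a Rad21 peak in a CTCF-degron list. The members at Hdac4 and Mgat4a came closest to a remaining CTCF peak, at 90 and 128 bp, and neither kept Rad21 either. Their parental Rad21 ranks were low, at 29.8 and 47.9. Like the Gdpd3 member, they also had no Rad21 peak in either Rad21-degron library without IAA.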

How the data were processed

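ChIP-seq peak lists of 16 libraries in 6 groups were used, 1 list per library. The other 8 of the 24 samples are inputs and were not used here. Per the labels, reads were aligned to an mm9 hybrid genome. The submitters' processing notes name Bowtie2 2.2.8, SAMtools 1.8 and the builds mm9 and hg19. The peak caller, its threshold and its use of inputs are not given in the sources used here. The deposited lists give a fold enrichment (a linear ratio) and −log10 p-values and q-values per peak, as the authors' values. The deposited score column follows the q-value and was not used. Some Rad21 libraries carry a human HCT116 spike-in, and only mouse peaks were counted. Peaks past the reference end were found on chromosome 12 only, which was left out.

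Merging, overlaps (at least 1 bp), distances (GENCODE vM1, NCBIM37) and motif searches were done with numpy 2.4.6 and pysam 0.24.0, and the site classes and counts were tested on simulated peak lists. Libraries were the unit of exact two-sided permutation tests between groups and of sign-flip tests within libraries, and no test here can reach 0.05. Fold enrichment served to rank peaks within a list. Tested differences were not adjusted, since none passed. Members, gene lists, motifs and tests were chosen with earlier results of these data known. Sites were named by rule: the 8 members of highest parental Rad21 rank with no Rad21 left and the 8 with Rad21 in 3 lists, the 4 farthest from remaining CTCF, up to 4 per gene list by parental rank, and those nearest to the limits.

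Alternatives were a stricter q-value (0.001), a fold of 4 or more, 50% coverage, peaks within 1000 bp joined, lists shortened to equal length, a limit of 5 kb from transcript starts, CTCF sites of 1 parental library, single-copy sites, spike-in libraries only, each library left out, quartiles of parental rank and the replicate block.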

Additional observations from a re-analysis of the deposited data

How the results depend on the processing

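Of 233 recomputed values, 219 kept their direction and, for the counts of members, stayed within 1.5 times the value reported. Spike-in libraries only and leaving out CTCF-degron Rad21 replicate 1 are the same setting, so their identical values were counted under both. The difference in core motif between kept and other members, −0.80 points, changed sign at a q-value of 0.001 or less (5.78), at a fold of 4 or more (3.25), with peaks within 1000 bp joined (0.56) and with single-copy sites (0.046), and ran from −3.48 to 4.32 with single libraries left out, above 0 without CTCF-degron Rad21 replicate 3 (1.92) and without CTCF-degron CTCF replicate 2 (4.32). It was −11.1 with CTCF sites of 1 parental library, −6.58 in the 300 bp window and −4.07 with 50% coverage. Between CTCF-degron IAA and Rad21-degron IAA the difference became −0.00477 points in lists shortened to the shortest, a cut that removes most member peaks by construction. The 276 members with Rad21 in every list became 44 at a q-value of 0.001 or less and 138 with shortened lists. They became 1 with 50% coverage, a rule that few Rad21 peaks at members meet, and 479 with CTCF sites of 1 parental library. With single libraries left out the number ran from 276 to 1168, the highest where 2 Rad21 lists had to have a peak in place of 3. Members with none, 8364, ran from 6196 to 10199 over the other alternatives and from 8367 to 12721 with single libraries left out, the highest without parental Rad21 replicate 3, where the members number 15208. With the replicate block, the tested differences were −57.3 points (CTCF-degron IAA against Rad21-degron without IAA), −72.9 (Rad21-degron with against without IAA) and 15.6 (CTCF-degron against Rad21-degron with IAA), each with an exact p of 0.5, and no direction changed. The pairing was checked for replicates 1 and 2 of the 3 degron-line Rad21 groups alone, where the correlations of deviations were 0.00898, −0.00987 and 0.00920. The values 0.00898 and 0.00920 involve the Rad21-degron IAA lists, which called 7 and 1 members and could hardly show a pairing. Whether the numbers pair the libraries is thus not settled. Counting peaks over the central 200 bp, chosen after seeing the data, gave 204 members with Rad21 in every list and 8559 with none. Depth is unknown for every list, and groups of 2 or 3 libraries limit every test here.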

Other observations

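Chromosome 12, where reads were aligned to a hybrid sequence, was left out of the members. The 414 sites of its first 110 Mb that meet the other conditions had a Rad21 peak in 19.3%, 15.0% and 4.59% of cases in CTCF-degron IAA replicates 1, 2 and 3 (13.0% ± 7.57, SD, n = 3). The members elsewhere gave 17.3%, 13.9% and 3.18%.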
